A study of Rattus norvegicus with 3 samples.

Results

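The cells described are endothelial cells of healing diabetic rat skin that carried mRNA of Sele (E-selectin) or Selp (P-selectin), and they numbered 613 of 43701 deposited cell barcodes. They were chosen by a rule on the counts. A barcode needed at least 500 unique molecular identifiers (UMIs, each standing for 1 captured RNA molecule), at least 300 genes and at most 20% mitochondrial UMIs, which 41236 barcodes met. It then needed a UMI of at least 2 of the 7 endothelial genes Cdh5, Egfl7, Emcn, Kdr, Plvap, Vwf and Adgrl4, at least 1 UMI of Sele or Selp, and no UMI of Ptprc (leukocytes), Pdgfra (fibroblasts) or Rgs5 (pericytes). The 1431 barcodes that met every condition except the selectin UMI are called other endothelial cells below. The 3 groups were wounds covered with a CO-releasing hyaluronic acid hydrogel (CO hydrogel), wounds covered with hyaluronic acid hydrogel alone (Hydrogel) and wounds left untreated (Untreated), with 1 single-cell library each. They contributed 273, 232 and 108 selectin-positive cells, and 756, 493 and 182 other endothelial cells, in that order. All rats were wild-type SD males of 8 to 10 weeks, made diabetic with 65 mg/kg streptozotocin and used at a blood glucose over 16.7 mM, so that no library comes from a non-diabetic animal. Each had a full-thickness skin defect 15 mm across, and the tissue was taken at day 7 and dissociated with an enzyme kit at 37 °C. The labels do not say how many animals stand behind a library.

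Venules are the vessels through which most leukocytes leave the blood during inflammation. Their endothelium stores P-selectin with von Willebrand factor in Weibel-Palade bodies and makes E-selectin after cytokine stimulation through NF-kB. Both selectins let leukocytes roll along the vessel wall, chemokines then activate the rolling cells, and Icam1 and Vcam1 hold them fast before they cross.

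The 3 libraries held 109718517, 109148721 and 78233883 UMIs over all deposited barcodes, for CO hydrogel, Hydrogel and Untreated. Selectin-positive cells had median depths of 4733, 7011 and 8344 UMIs, against 2716, 3421 and 4502 UMIs in other endothelial cells. They were therefore the deeper cells in every library, and a rule that asks for a UMI finds more members among deep cells. Between libraries 364 to 600 barcode sequences were shared, of which 4 to 7 belonged to a selectin-positive cell in both. A single CO hydrogel barcode must be kept apart in what follows: it held 103691 UMIs and 3695 of the 3911 keratinocyte-marker UMIs of all members there, with 1 Selp UMI, no Sele UMI and only 2 of the 7 endothelial genes. Results seen to rest on it are given with and without it, or are marked as resting on it.

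Sele was counted at 1654 UMIs in CO hydrogel, 1771 in Hydrogel and 962 in Untreated members, or 882, 914 and 704 counts per 1000000 UMIs of those cells (CPM). Selp was counted at 1476, 2330 and 1183 UMIs, or 787, 1203 and 866 CPM. These values follow from the rule and are given as a description. Most members carried few selectin molecules and a few carried many. The median member had 2, 2 and 3 Sele UMIs in the 3 libraries and the highest had 115, 203 and 135. The tenth of members with the most Sele held 52.4% of its UMIs in CO hydrogel, 57.1% in Hydrogel and 64.4% in Untreated. Exactly 1 selectin UMI, the least the rule accepts, was found in 65, 58 and 21 members. Those with exactly 2 of the endothelial genes numbered 26, 23 and 7, and 21, 33 and 10 further barcodes lay just outside, with a selectin UMI and only 1 endothelial gene. A UMI of Ptprc, Pdgfra or Rgs5 removed 192, 120 and 35 barcodes that met all other conditions. Their median depths were 13020, 15594 and 21397 UMIs, so the exclusion removed mostly deep barcodes.

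Both selectins were found in 151 CO hydrogel members (55.3%), 122 Hydrogel members (52.6%) and 64 Untreated members (59.3%). Sele without Selp marked 56, 43 and 19 members, and Selp without Sele marked 66, 67 and 25. Members held 60.3%, 68.8% and 78.5% of all Sele UMIs in barcodes past the filter, and 52%, 62% and 71.7% of all Selp UMIs. Selplg, the gene of the leukocyte ligand PSGL-1, was at 0 UMIs in members of each library, and also in other endothelial cells. It was scarce in leukocytes too, at 16.1, 10.9 and 2.74 CPM in cells gated as neutrophils by marker UMIs. Cells gated as macrophages had 2.64, 3.03 and 3.22 CPM, so the 0 says little about leukocyte RNA in members.

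**Figure D1:**
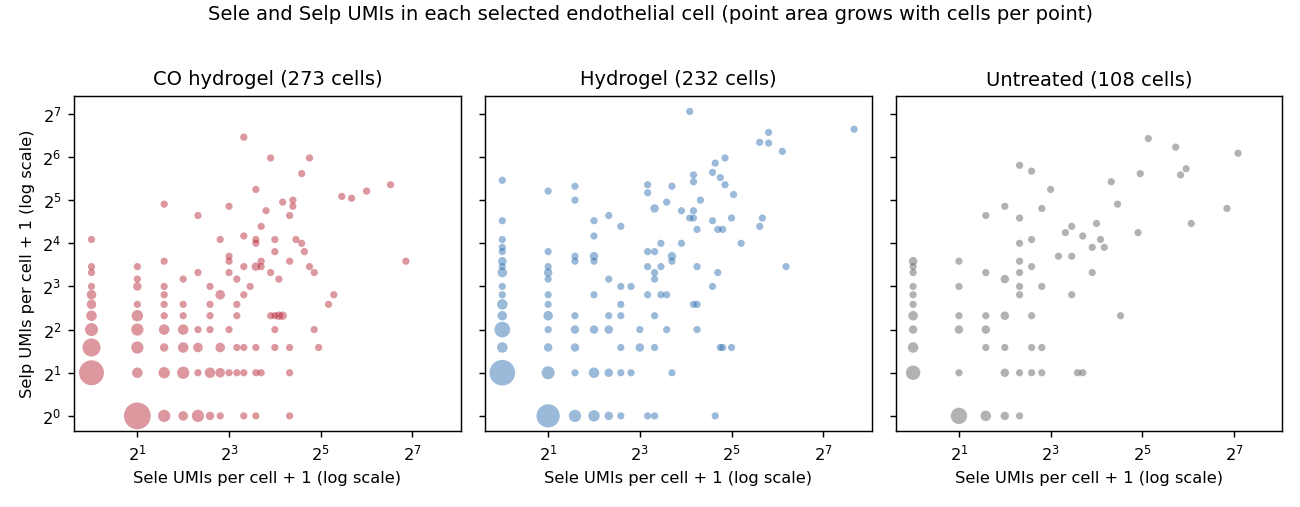
Sele UMIs plus 1 (horizontal) against Selp UMIs plus 1 (vertical) in each selectin-positive cell, 1 panel per library, both on log2 axes; the area of a point grows with the number of cells at that pair of counts. Most of the 273, 232 and 108 cells lie at low counts of both, and a few reach 115, 203 and 135 Sele UMIs.

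The label of activated venous endothelium was checked on its other markers. Plvap, the diaphragm protein of fenestrated and venular endothelium, stood at 2334, 2273 and 2491 CPM in selectin-positive cells, against 907, 962 and 1129 CPM in other endothelial cells. Vwf stood at 487, 526 and 517 CPM, against 214, 243 and 246 CPM. Both genes belong to the rule, so these values are a description. Aplnr, the apelin receptor of venous endothelium, was not used by the rule and stood at 391, 393 and 583 CPM, against 352, 280 and 306 CPM. Its difference, tested below, did not pass without the Hydrogel or without the Untreated library. Ackr1, the classical venular marker, was not analysed here. A UMI of the capillary genes Gpihbp1 or Rbp7 was present in 43.6%, 53.9% and 68.5% of members, so capillary RNA was not absent from them.

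The share of endothelial cells with a selectin UMI had overlapping intervals in the 3 libraries once depth was made equal, which held only with cells carrying Ptprc, Pdgfra or Rgs5 left out. With every cell thinned to 1000 UMIs, it was 20.7% in CO hydrogel (183 of 882 cells, 95% exact Clopper-Pearson interval 18.1% to 23.6%), 21.0% in Hydrogel (135 of 643, 17.9% to 24.4%) and 22.8% in Untreated (58 of 254, 17.8% to 28.5%). With those cells kept, the thinned share was 13.5% in CO hydrogel (242 of 1793 cells, 11.9% to 15.2%), 16.9% in Hydrogel (187 of 1106, 14.7% to 19.2%) and 19.7% in Untreated (76 of 386, 15.8% to 24.0%), and the CO hydrogel interval then lay below the Untreated one. With them left out, thinning removed 147, 82 and 36 shallower cells. Without thinning the shares were 26.5%, 32% and 37.2%, in the order of the libraries' median depths. The share in cells of other gates was far lower: thinned macrophage-gated cells had a selectin UMI in 0.258%, 0.252% and 0.542%, and fibroblast-gated cells in 0.276%, 0.174% and 0.205%. Median depths of those gates before thinning were 5623, 8532 and 8587 UMIs for macrophages and 9780, 13637 and 17790 UMIs for fibroblasts. Neutrophil-gated cells reached 1.49%, 1.99% and 1.34%. Each of these gates leaves out barcodes with a Cdh5 or Plvap UMI. Barcodes with such endothelial RNA were thus removed beforehand, and these shares do not measure the full background. Intervals of this kind, here and below, cover counting error only.

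**Figure D2:**
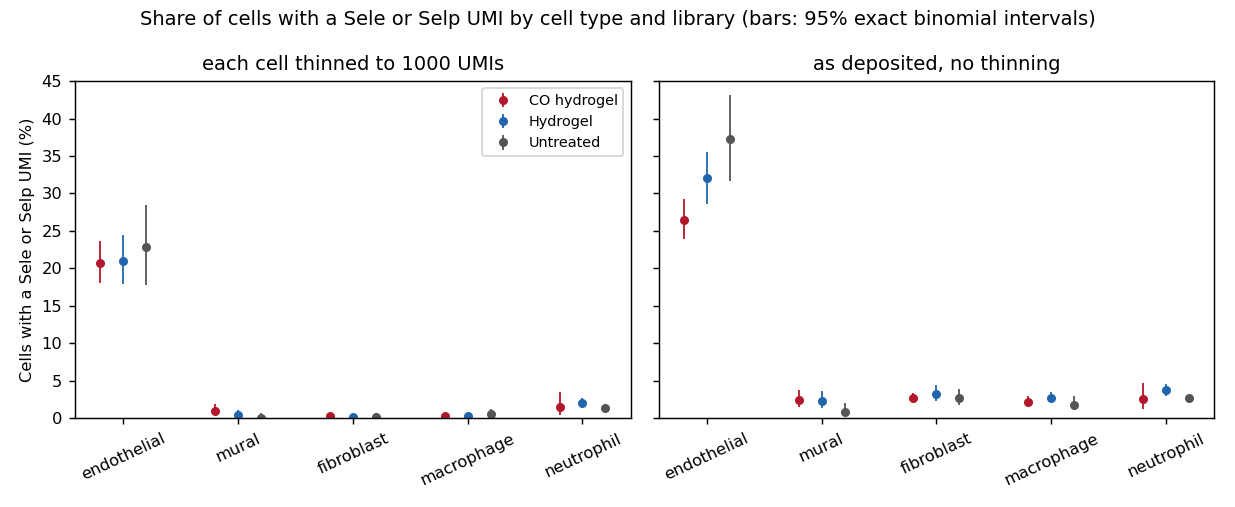
Percent of cells with a Sele or Selp UMI (vertical) in the endothelial, neutrophil, macrophage, fibroblast and mural gates of each library, thinned to 1000 UMIs per cell and unthinned, with 95% exact intervals. Endothelial cells lie near 20.7% to 22.8% after thinning, and the other gates lie at or below 1.99%. The other gates leave out barcodes with a Cdh5 or Plvap UMI.

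As a share of all barcodes past the filter, selectin-positive cells made up 1.83% in CO hydrogel (1.62% to 2.06%), 1.62% in Hydrogel (1.42% to 1.84%) and 0.903% in Untreated (0.741% to 1.09%). The endothelial gate as a whole made up 6.89%, 5.05% and 2.42%. The share was higher in both hydrogel libraries than in Untreated beyond counting error, together with the endothelial gate. Dissociation and the number of other cells recovered bear on such shares, and with 1 library per treatment no test between treatments is possible. Neutrophil-gated cells, set by marker UMIs, numbered 391 of 14925 barcodes past the filter in CO hydrogel, 2371 of 14346 in Hydrogel and 5529 of 11965 in Untreated. A larger number of them lowers the share of every other cell type, and their part in the difference was not tested.

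Selectin-positive cells were compared with other endothelial cells over the 3 libraries, as sums of counts per library and with the library as a block, by edgeR's quasi-likelihood test. Of 9366 genes tested, 379 were higher (4.05%) and 539 lower (5.75%) at a Benjamini-Hochberg adjusted p under 0.05. They carried more RNA of the adhesion molecules Icam1 and Vcam1, of several chemokines and colony-stimulating factors and of venous genes, and less of arterial, sprouting-tip, lymphatic and basement membrane genes. Because the cells were split by the counts of Sele and Selp in the same cells, these tests describe what goes with a detected selectin in 3 wounds, and their p-values measure the spread between these libraries, which differ in treatment. The genes of the rule were not tested. Of the called genes, 365 of the 379 higher and 491 of the 539 lower had the same sign in all 3 libraries. Statements below that groups did not overlap describe the sums of genes already called or picked for their size. The share of all tested genes without overlap is not given here, so they add no separate support. Without the Hydrogel library 220 genes were higher and 357 lower, and without the Untreated library 250 and 398. DESeq2 called 179 and 153, edgeR called 165 and 191 in cells thinned to 1000 UMIs, and 681 and 887 with barcodes holding Ptprc, Pdgfra or Rgs5 kept.

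Icam1, the ligand of leukocyte beta-2 integrins, stood at 635, 710 and 417 CPM in selectin-positive cells of CO hydrogel, Hydrogel and Untreated, against 179, 157 and 102 CPM in other endothelial cells. The lowest selectin-positive sum lay above the highest of the others, and the log2 fold change was 2.05 (SE 0.12, adjusted p = 4.61e-07). An Icam1 UMI was found in 72.9%, 65.5% and 75.9% of selectin-positive cells, against 32.9%, 31.0% and 33.5% of the others. Vcam1, the ligand of the integrin VLA-4, stood at 123, 214 and 81.3 CPM, against 24.1, 44.8 and 16.4 CPM. The groups again did not overlap, with a log2 fold change of 2.34 (SE 0.12, adjusted p = 3.26e-07). Vcam1 was less widely spread than Icam1: its UMIs were found in 30.4%, 45.7% and 33.3% of selectin-positive cells, and the tenth of members richest in it held 73.2%, 67.2% and 68.5% of them. Icam2 (log2 0.49, adjusted p = 0.0282) and the junctional adhesion molecule Jam2 (log2 0.65, adjusted p = 0.00574) were also higher. Of 16 adhesion genes tested, 4 were higher and 5 lower, with a median log2 change of -0.05 against -0.01 over all genes. The lower ones were Cd34 and Podxl, sialomucins that can carry selectin ligands, Chst1 and Fut4, enzymes that modify such sugars, and the hyaluronan receptor Cd44. Icam2, Jam2, Cd34 and Podxl did not pass in cells thinned to 1000 UMIs, Icam2 not without the Untreated library, Cd44 not without the Hydrogel or the Untreated library, and Icam2, Fut4 and Cd44 not with DESeq2, whereas Icam1, Vcam1 and Chst1 passed under each of these.

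The promoter of Vcam1 is shown because it was the only gene that held a match to the NF-kB (kappaB) consensus among the 9 higher genes reported that have a promoter entry. The window is RefSeq's, build GRCr8, chr2:206742734-206743033 on the minus strand, from 250 bases before to 50 after the gene's start, 5′ to 3′. Capitals mark 1 match to the kappaB consensus and, downstream of it, 1 match to the interferon-response core (GAAA, any 2 bases, GAAA), both read on either strand.

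Vcam1: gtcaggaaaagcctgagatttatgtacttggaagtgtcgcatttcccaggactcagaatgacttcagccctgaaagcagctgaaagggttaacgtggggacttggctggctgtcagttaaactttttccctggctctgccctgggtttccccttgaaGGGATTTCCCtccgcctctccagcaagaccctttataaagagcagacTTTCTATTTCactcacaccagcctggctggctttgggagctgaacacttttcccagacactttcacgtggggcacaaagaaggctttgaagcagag

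The kappaB consensus was found in 7.51% of 33469 promoter windows of the same length, and the interferon-response core in 3.92%. The window of Sele, chr13:78936264-78936563 on the plus strand, held no match to either, and that of Icam1 held none to the kappaB consensus. This says only that these letters are not in these windows.

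Colony-stimulating factor 3 (Csf3), the growth factor of neutrophils, stood at 273, 531 and 209 CPM in selectin-positive cells, against 34.3, 112 and 61.3 CPM in other endothelial cells. The groups did not overlap (log2 fold change 2.39, SE 0.19, adjusted p = 7.70e-06). It came from a minority, with a UMI in 27.8%, 44.0% and 38.0% of the cells. Il33, an alarmin kept in the nucleus of endothelial cells, stood at 443, 467 and 219 CPM, against 137, 93.4 and 48.6 CPM, also without overlap (log2 2.08, SE 0.14, adjusted p = 1.40e-06). With barcodes holding Ptprc, Pdgfra or Rgs5 kept, its difference fell to a log2 of 0.47 and did not pass (adjusted p = 0.276). In fibroblast-gated cells Il33 stood at 720, 943 and 871 CPM.

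The monocyte attractants Ccl2 and Ccl7 were both higher. Ccl2 stood at 2806, 2350 and 2038 CPM, against 1623, 1200 and 913 CPM (log2 1.01, adjusted p = 4.19e-05), and Ccl7 at 727, 587 and 472 CPM, against 280, 284 and 111 CPM (log2 1.51, adjusted p = 0.0001). Neither pair of groups overlapped. Cxcl1, which attracts neutrophils, stood at 6589, 7964 and 4497 CPM, against 4413, 3702 and 2800 CPM (log2 0.82, adjusted p = 0.000218), and the Cxcl1 sums of all selectin-positive cells exceeded those of all others. Il6 and Csf1 were higher as well, by log2 0.75 and 0.66, and Csf1 did not pass without the Hydrogel or the Untreated library. Cxcl2 was lower, at 178, 343 and 467 CPM against 275, 818 and 1924 CPM (log2 -1.29, adjusted p = 0.00135), and so was Cxcl3 (log2 -1.23). Both are abundant in neutrophil-gated cells, where Cxcl2 reached 10807, 20814 and 57016 CPM, and neutrophil markers summed to 936, 408 and 352 CPM in selectin-positive cells, against 912, 1315 and 1586 CPM in the others. The part of such RNA in the difference was not tested. Of 18 chemokine and cytokine genes tested, 8 were higher and 3 lower, with a median log2 change of 0.24. The remaining 2 were Ccl20, for which 75 of 80 CO hydrogel UMIs lay in 1 member, on the higher side, and Cxcl6, on the lower side, and both, like Cxcl3, did not pass with DESeq2. The interferon-induced Cxcl9, Cxcl10 and Cxcl11 did not pass (log2 -0.26, 0.16 and 0.32).

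**Figure D3:**
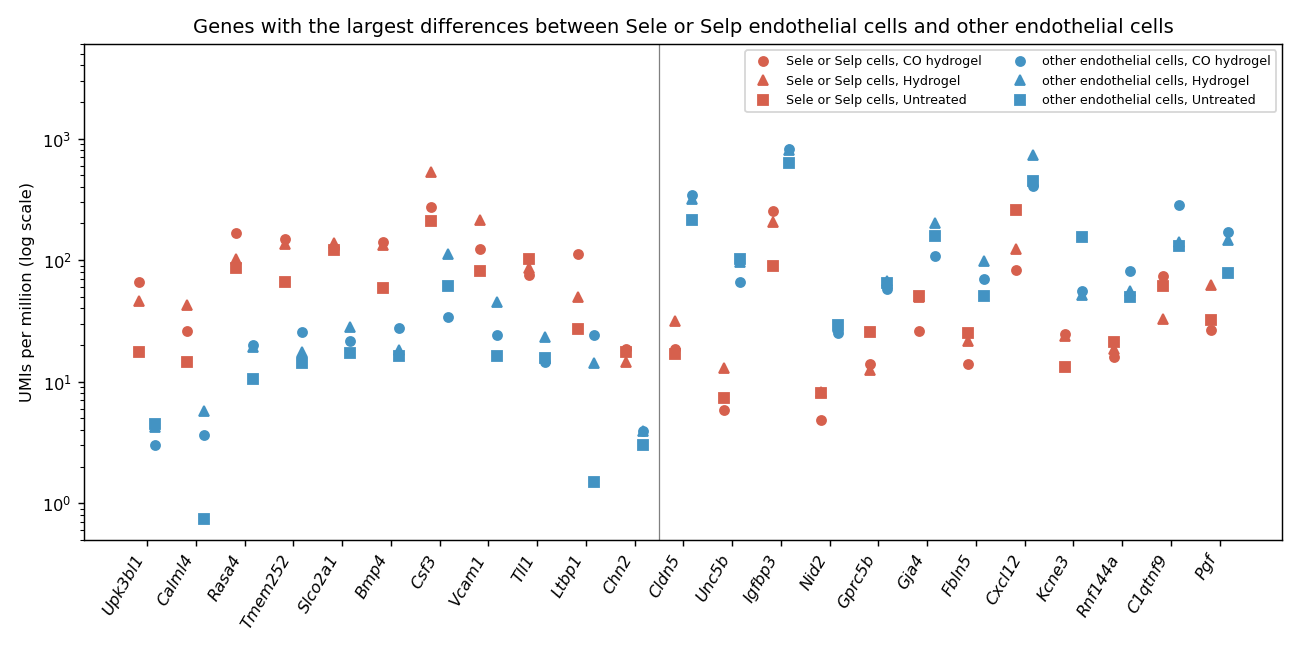
CPM on a log axis of 23 of the genes with the largest called differences (11 higher, 12 lower), with selectin-positive cells in red left of other endothelial cells in blue, and circle, triangle and square for CO hydrogel, Hydrogel and Untreated. Vcam1 lies at 81.3 to 214 CPM in selectin-positive cells and at 16.4 to 44.8 CPM in the others, and Cldn5 at 16.8 to 31.5 CPM and at 214 to 346 CPM.

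Among the NF-kB targets and feedback genes, 4 of 19 tested were higher and none lower, at a median log2 change of 0.27. They were the inhibitors Nfkbia and Nfkbiz (log2 0.40 and 0.58), the deubiquitinase Tnfaip3 and the mitochondrial dismutase Sod2 (log2 0.65). Tnfaip3 stood at 51.2, 73.3 and 54.9 CPM, against 28.6, 43.7 and 25.4 CPM, without overlap (log2 0.90, SE 0.14, adjusted p = 0.00122). Without the Hydrogel library Nfkbia, Nfkbiz and Sod2 did not pass, and in thinned cells Tnfaip3 and Sod2 did not. Enzymatic dissociation induces early stress genes, and a list of those had 6 of 17 genes higher and none lower, with Atf3 at 1310, 1529 and 1294 CPM against 805, 855 and 864 CPM (log2 0.74, adjusted p = 0.000352), while Fos did not pass (log2 -0.01, adjusted p = 0.968). The part of dissociation in these differences was not tested.

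A few cytokine receptors were also higher. Il1r1, the receptor of interleukin 1, stood at 36.8, 46.5 and 39.5 CPM in selectin-positive cells, against 17.2, 18.8 and 8.96 CPM in the others, without overlap (log2 1.42, SE 0.20, adjusted p = 0.000677). Il6st, the shared signalling chain gp130, was higher by log2 1.00 (adjusted p = 0.000123), and Csf2rb by log2 0.70. Tlr2 (log2 -1.22) and the decoy receptor Tnfrsf11b (log2 -1.70) were lower, and the other 15 of 20 did not pass. Csf2rb did not pass without the Hydrogel or the Untreated library, Tlr2 not without the Untreated library, and Csf2rb, Tlr2 and Tnfrsf11b not with DESeq2.

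The venous genes were higher as a group: 8 of 10 tested passed upward and none downward by edgeR, with a median log2 change of 0.71 against -0.01 over all genes. DESeq2 called 5 of the 10. The list was written with earlier results of these cells known, so its direction is no independent support. Nr2f2 (COUP-TFII), the transcription factor that sets venous identity, stood at 99.2, 98.1 and 59.3 CPM, against 66.8, 44.8 and 33.6 CPM (log2 0.87, SE 0.13, adjusted p = 0.00113). The Untreated selectin-positive sum lay below the CO hydrogel sum of the others, so the Nr2f2 groups overlap across libraries while each library shows the difference. With barcodes holding Ptprc, Pdgfra or Rgs5 kept, the Nr2f2 call was lost. Lrg1, a secreted glycoprotein of inflamed venules, stood at 903, 944 and 996 CPM, against 537, 520 and 651 CPM, without overlap (log2 0.78, adjusted p = 0.000352). Tll1, Ptgs1, Prcp, Ephb4, Il1r1 and Aplnr made up the rest. Aplnr was higher by log2 0.55 (SE 0.14, adjusted p = 0.021), and Aplnr, Prcp and Ephb4 did not pass without the Hydrogel or without the Untreated library, nor did Ephb4 without CO hydrogel.

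Arterial genes were lower, 10 of 12 tested and none higher, at a median log2 change of -1.31, and DESeq2 called 7. Gja5 (connexin 40), a gap junction protein of arterial endothelium, was at 0.533, 5.16 and 0 CPM, against 22.6, 46.9 and 14.9 CPM. Its log2 fold change was -3.78 (SE 0.39, adjusted p = 8.44e-05), a fitted value for a gene with no UMI in Untreated members. Gja4 (connexin 37) stood at 26.1, 49.6 and 50.5 CPM, against 108, 202 and 159 CPM (log2 -1.88). The Notch ligand Dll4 stood at 42.7, 42.3 and 49.1 CPM, against 94.5, 121 and 112 CPM (log2 -1.26), and the ephrin Efnb2 at 48, 85.2 and 72.5 CPM, against 123, 213 and 157 CPM (log2 -1.23). No arterial gene of these 4 overlapped between the groups. Cxcl12, the chemokine of arterial endothelium and stroma, stood at 83.2, 123 and 260 CPM, against 407, 727 and 449 CPM (log2 -1.85, adjusted p = 0.000574).

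Tip and sprouting genes were lower for 10 of 14 tested and higher for none, with a median log2 change of -0.63. DESeq2 called only 4 of the 14. Angpt2 turned to a log2 of 0.08 in thinned cells, and Mcam to 0.10 with barcodes holding Ptprc, Pdgfra or Rgs5 kept. Cxcr4, the receptor of Cxcl12 and a tip-cell gene, stood at 84.3, 57.8 and 46.1 CPM, against 238, 247 and 183 CPM (log2 -1.80, SE 0.14, adjusted p = 6.72e-06), without overlap. Esm1 (log2 -1.73), Pgf (log2 -1.69) and Kcne3 (log2 -1.79) were lower, Esm1 and Kcne3 not with DESeq2, whereas Apln, the ligand of Aplnr, stood at 229, 135 and 112 CPM against 261, 141 and 102 CPM and did not pass (log2 -0.02). Of 17 basement membrane and matrix genes, 8 were lower and none higher by edgeR, and DESeq2 called 4. Col4a1 stood at 2777, 3585 and 4211 CPM, against 4400, 4704 and 5131 CPM (log2 -0.41), and it did not pass without the Hydrogel library. With barcodes holding Ptprc, Pdgfra or Rgs5 kept, its log2 change was 0.01.

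Capillary genes moved in both directions. Gpihbp1, which anchors lipoprotein lipase on capillaries, stood at 509, 482 and 985 CPM, against 1213, 1102 and 1247 CPM (log2 -0.90, adjusted p = 0.00217), without overlap, and Rgcc, Kit and Btnl9 were also lower (log2 -1.35, -1.44 and -1.94), while Gpihbp1 and Btnl9 did not pass with barcodes holding Ptprc, Pdgfra or Rgs5 kept. The water channel Aqp1 (log2 0.84) and Tspan7 (log2 0.91) were higher. Rbp7, a retinol-binding protein, stood at 730, 733 and 903 CPM against 1271, 1202 and 597 CPM and did not pass, since the Untreated library went the other way. The test was repeated against the 977 of the 1431 other endothelial cells with a Gpihbp1 or Rbp7 UMI. Most comparison cells are therefore the same, and arterial or lymphatic cells with such a UMI stay among them. Of 8996 genes 301 were higher (3.35%) and 318 lower (3.53%), and of the original calls 279 higher and 290 lower ones were called again. In this repeated test 5 of 10 venous genes were higher, 8 of 12 arterial genes lower, 9 of 14 tip genes lower and 8 of 17 chemokine and cytokine genes higher. Of 7 lymphatic genes 3 were still lower.

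Marker RNA of other cell types differed between the 2 sums as well. Macrophage markers summed to 451, 494 and 370 CPM in selectin-positive cells, against 1078, 1365 and 483 CPM in other endothelial cells, and 10 of 12 tested were lower. Fibroblast markers summed to 3229, 1100 and 946 CPM, against 7907, 2523 and 1005 CPM (1 of 10 higher and 5 lower), and mural markers to 305, 129 and 62.2 CPM, against 777, 279 and 78.4 CPM (7 of 9 lower). Lymphatic markers summed to 109, 58.9 and 42.5 CPM, against 344, 207 and 899 CPM, and the lymphatic chemokine Ccl21 had 1.07, 0 and 0.732 CPM, against 624, 52.2 and 1385 CPM. Keratinocyte markers summed to 2086, 52.1 and 34.4 CPM, against 1191, 596 and 47.1 CPM, the CO hydrogel value being that of the single barcode for the most part. Red cell genes summed to 64.5, 8.26 and 8.05 CPM, against 100, 32.7 and 3267 CPM. The selectin-positive sums held less macrophage, mural and lymphatic marker RNA in every library. Pan-endothelial markers, which include the rule's genes, summed to 6541, 6510 and 6804 CPM, against 5073, 5368 and 5384 CPM.

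Genes with the largest differences outside these lists included transporter and matrix genes. Slco2a1, the prostaglandin transporter, stood at 126, 139 and 122 CPM in selectin-positive cells, against 21.4, 28.4 and 17.2 CPM in other endothelial cells (log2 2.54, SE 0.13, adjusted p = 3.26e-07). The growth factor Bmp4 stood at 141, 132 and 58.6 CPM, against 27.7, 18.1 and 16.4 CPM (log2 2.49, SE 0.16, adjusted p = 1.40e-06). Rasa4, a Ras GTPase-activating protein, stood at 166, 102 and 86.4 CPM, against 19.9, 19.2 and 10.5 CPM (log2 2.85). None of the 3 overlapped between the groups. Tmem252 (log2 2.67), Upk3bl1 (log2 3.66), Calml4 (log2 3.01), the metalloprotease Tll1 (log2 2.29), the latent TGF-beta binding protein Ltbp1 (log2 2.23) and Chn2 (log2 2.20) completed the 11 higher genes reported, each higher in all 3 libraries. Ltbp1 did not pass with barcodes holding Ptprc, Pdgfra or Rgs5 kept.

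On the lower side, Cldn5, the tight junction claudin of endothelium, stood at 18.7, 31.5 and 16.8 CPM, against 346, 321 and 214 CPM (log2 -3.68, SE 0.16, adjusted p = 1.15e-07). A Cldn5 UMI was found in 5.13%, 6.03% and 3.70% of selectin-positive cells, against 23.8%, 21.5% and 20.3% of the others. Unc5b, a netrin receptor of arterial and tip endothelium, stood at 5.87, 12.9 and 7.32 CPM, against 65.6, 97 and 102 CPM (log2 -3.26), and Igfbp3 at 253, 205 and 89.3 CPM, against 820, 805 and 630 CPM (log2 -2.09). Each of these 3 was lower in every library without overlap. Nid2 (log2 -1.94), Gprc5b (log2 -1.91), Fbln5 (log2 -1.88), Rnf144a (log2 -1.72) and C1qtnf9 (log2 -1.70) were also among the 12 named lower genes, with Gja4, Cxcl12, Kcne3 and Pgf given above. Rnf144a did not pass in cells thinned to 1000 UMIs, and no other of these 12 lost its call in thinned cells or with DESeq2 except Kcne3 with DESeq2.

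Coagulation genes were split, 4 of 16 higher and 3 lower. Thrombomodulin (Thbd), which turns thrombin to an anticoagulant role, stood at 539, 350 and 322 CPM, against 306, 205 and 229 CPM (log2 0.73, adjusted p = 0.00139), without overlap. Tissue plasminogen activator (Plat, log2 -0.78) and tissue factor (F3, log2 -1.08) were lower. Thbd did not pass with barcodes holding Ptprc, Pdgfra or Rgs5 kept, Plat and F3 not in thinned cells, and F3 not without the Hydrogel or the Untreated library. Of the Weibel-Palade genes other than those of the rule, 1 of 13 was higher, the granule GTPase Rab27a (log2 1.06, not passing with DESeq2 or in thinned cells), and 2 were lower. Hmox1, the heme oxygenase that makes CO in cells, stood at 79.5, 92.9 and 90.8 CPM, against 155, 209 and 198 CPM, without overlap (log2 -1.05, SE 0.11, adjusted p = 9.38e-05). The Hmox1 call was lost with barcodes holding Ptprc, Pdgfra or Rgs5 kept, and macrophage-gated cells had 1812, 2179 and 2569 CPM of it. The receptors Eng (log2 0.72) and Calcrl (log2 0.89) were higher and Notch4 (log2 -0.91) lower. Of 13 proliferation genes edgeR and DESeq2 each called 0, and 3 had an unadjusted p under 0.05 in edgeR, with Mki67 at log2 -0.48 (adjusted p = 0.177). Counts of higher and lower genes in the other lists were 2 and 3 of 20 interferon genes, 0 and 8 of 15 mesenchymal genes, 0 and 7 of 9 lymphatic genes, 2 and 3 of 13 junction genes, 4 and 3 of 18 growth factor and Notch receptor genes, 2 and 3 of 19 heme and nitric oxide genes, 1 and 2 of 10 flow genes and 1 and 0 of 5 prostanoid genes.

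**Figure D4:**
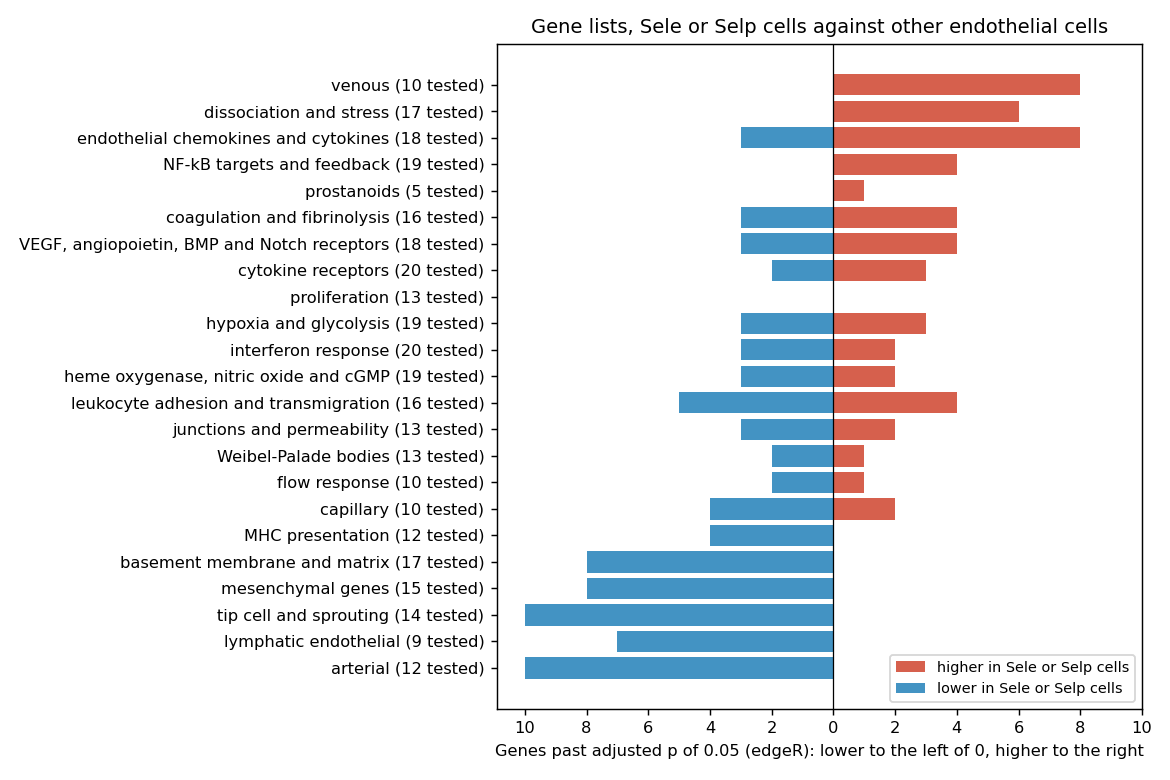
Number of genes called higher (right) and lower (left) in selectin-positive cells than in other endothelial cells, for each of the 23 gene lists. Venous genes count 8 higher and 0 lower of 10 tested, arterial genes 0 higher and 10 lower of 12, and tip genes 0 higher and 10 lower of 14.

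Within the selectin-positive cells, those with a Sele UMI were compared with those that had Selp alone. Of 7132 genes tested, 11 were higher (0.154%) and 64 lower (0.897%) by edgeR's quasi-likelihood test. Sele-positive cells had median depths of 4961, 7849 and 8915 UMIs, against 4140, 4882 and 6487 UMIs in Selp-only cells. Ccl2 stood at 3195, 2499 and 2203 CPM in Sele-positive cells, against 1379, 1807 and 1021 CPM in Selp-only cells, without overlap (log2 0.85, SE 0.14, adjusted p = 0.0059). Il6 stood at 503, 465 and 329 CPM, against 299, 259 and 157 CPM (log2 0.79, adjusted p = 0.0216), and Il33 at 497, 509 and 230 CPM, against 244, 314 and 152 CPM (log2 0.72, adjusted p = 0.0442). The Il6 groups did not overlap, whereas the Untreated Sele-positive sum of Il33 lay below 2 of the Selp-only sums. The ubiquitin-like modifier Ubd stood at 53.6, 282 and 9.36 CPM, against 15, 36 and 0 CPM, higher in each library though far apart between them and found in 24, 30 and 4 selectin-positive cells (log2 2.61, SE 0.32, adjusted p = 0.000281). Zfand2a, a heat-shock-induced gene, was higher by log2 0.93, and Tmem252, Upk3bl1 and Tmem243 by log2 1.31, 1.68 and 1.15. Rbp7 was lower, at 537, 684 and 781 CPM against 1436, 909 and 1654 CPM, without overlap (log2 -1.04, SE 0.17, adjusted p = 0.00549). Cxcl9 was also lower, at 95.7, 616 and 97 CPM against 199, 967 and 152 CPM (log2 -0.85, adjusted p = 0.0194).

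Many of the lower calls came from the barcode rich in keratinocyte RNA, which lies in the Selp-only sum of CO hydrogel. Krt17, a wound keratin, stood there at 5458 CPM, against 36 CPM in Hydrogel and 47.1 CPM in Untreated Selp-only cells, and its log2 change of -4.40 became -0.97 without that barcode (adjusted p = 0.145). Stfa3 (log2 -5.41) and Jup (log2 -1.74) likewise did not pass without it. Without it 23 genes were higher and 34 lower, of which 10 and 18 were among the calls above. The Sele-against-Selp calls were fragile in other ways: with barcodes holding Ptprc, Pdgfra or Rgs5 kept, edgeR called 0 genes (238 higher and 381 lower at an unadjusted p under 0.05), and DESeq2 called 2 higher and 5 lower. Without the Hydrogel library 2 were higher and 41 lower, and without the CO hydrogel library 24 and 36. Il33 and Il6 each lost their call when the Hydrogel or the Untreated library was left out, Il33 also without CO hydrogel, Ccl2 without Untreated, and Ubd, Zfand2a and Cxcl9 without Hydrogel. Tmem243 passed in the full fit but lost its call without any 1 of the libraries, and Rbp7 kept its call without each of them.

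Between treatments, selectin-positive cells are described by ratios of summed counts with 95% exact intervals that cover counting error alone. The comparisons share libraries: each library enters 2 of the 3. At least 2-fold higher in Hydrogel than in Untreated were 201 of 5907 genes with 50 or more UMIs (3.4%), and 38 were lower (0.643%). For CO hydrogel over Untreated the counts were 276 (4.72%) and 46 (0.787%) of 5847, and for CO hydrogel over Hydrogel 141 (2.2%) and 87 (1.36%) of 6407. Without the barcode rich in keratinocyte RNA, the counts for CO hydrogel over Hydrogel were 98 higher and 81 lower, and for CO hydrogel over Untreated 240 and 42. With all cells thinned to 1000 UMIs, which leaves fewer genes over the minimum, 22 and 25 passed for CO hydrogel over Hydrogel, 47 and 17 for CO hydrogel over Untreated, and 29 and 6 for Hydrogel over Untreated. Many ratios of single genes moved beyond their interval in thinned cells or by per-cell means, as counted under the dependence on processing below. Interferon-induced genes were among the highest ratios of both hydrogels over Untreated, and the chemokines Cxcl9, Cxcl10 and Cxcl11 were highest in Hydrogel.

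Cxcl11, a ligand of the chemokine receptor Cxcr3, was counted at 34.1 CPM in CO hydrogel (26.3 to 43.6), 562 CPM in Hydrogel (529 to 596) and 13.2 CPM in Untreated (7.81 to 20.8). Its log2 ratio was -4.04 for CO hydrogel over Hydrogel (-4.43 to -3.68) and 5.41 for Hydrogel over Untreated (4.75 to 6.17). Cxcl9 stood at 118 CPM (103 to 135), 692 CPM (655 to 730) and 105 CPM (88.2 to 123), and Cxcl10 at 197 CPM (178 to 219), 703 CPM (666 to 742) and 95.2 CPM (79.5 to 113). For all 3 chemokines the Hydrogel library was the highest, and the CO hydrogel and Untreated intervals overlap for Cxcl9 alone. In other endothelial cells Hydrogel was the highest as well, with Cxcl11 at 54.8, 219 and 30.6 CPM, Cxcl10 at 229, 363 and 138 CPM and Cxcl9 at 253, 562 and 114 CPM. The log2 ratios of Hydrogel over Untreated were 2.72, 2.89 and 5.41 for Cxcl9, Cxcl10 and Cxcl11 in selectin-positive cells, against 2.30, 1.39 and 2.84 in other endothelial cells.

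These chemokine molecules sat in few cells. A Cxcl11 UMI was found in 12.8% of CO hydrogel, 24.6% of Hydrogel and 8.33% of Untreated members. In Hydrogel 23 of the 232 members held 94.8% of the Cxcl11 UMIs, and the tenth richest in each held 93.7% of the Cxcl10 and 87.1% of the Cxcl9 UMIs. A single Hydrogel member had 241 Cxcl11 UMIs, or 22.2% of the sum. Cxcl9 was the more widely detected, with a UMI in 26%, 38.8% and 31.5% of members, so that the share of cells with a UMI differed less between libraries than the level. Macrophage-gated cells carried Cxcl11 at 22.6, 326 and 40.6 CPM and neutrophil-gated cells at 32.3, 232 and 4.73 CPM, so that the Hydrogel library was highest in those gates too. The part of free RNA from those cells was not tested.

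Ubd stood at 45.3 CPM in CO hydrogel, 229 in Hydrogel and 8.05 in Untreated, and the guanylate-binding proteins followed the same order, Gbp2 at 126, 294 and 54.2 CPM and Gbp5 at 19.2, 100 and 11 CPM. These levels too rested on few cells. A Ubd UMI was found in 24 CO hydrogel, 30 Hydrogel and 4 Untreated members, and 1 Hydrogel member held 124 of the 443 Hydrogel UMIs (28%) and 1 CO hydrogel member 27 of 85. In Hydrogel 23 members held 98.2% of the Ubd, 92.8% of the Gbp5 and 71.8% of the Gbp2 UMIs. The antiviral genes differed in that CO hydrogel and Hydrogel lay close together above Untreated. Ifit2 stood at 145, 119 and 24.9 CPM, Isg15 at 177, 169 and 46.1 CPM, and Mx2 at 42.7, 38.2 and 2.93 CPM. Detection differed less between libraries than the level, with an Isg15 UMI in 27.1%, 37.5% and 29.6% of members and an Ifit2 UMI in 34.1%, 34.1% and 23.1%. The tenth of members richest in Isg15 held 83.1%, 71.6% and 58.7% of its UMIs, and for Ifit2 66.1%, 67.8% and 58.8%. The log2 ratios for CO hydrogel over Hydrogel were 0.16 for Mx2 (-0.31 to 0.64), -2.38 for Gbp5 and -2.33 for Ubd. Of the interferon list, 9 of 13 genes measured were at least 2-fold higher in Hydrogel than in Untreated and none lower, at a median log2 ratio of 2.31, against 0.08 over all genes. For CO hydrogel over Untreated it was 7 of 11 at a median of 1.38, and for CO hydrogel over Hydrogel 0 higher and 4 lower of 17, the GTPases Gbp2, Gbp5, Ifi47 and Igtp. In other endothelial cells the same genes had medians of 1.72, 1.39 and -0.07 in these 3 comparisons, so the interferon genes differed between libraries outside the selectin-positive cells as well.

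**Figure D5:**
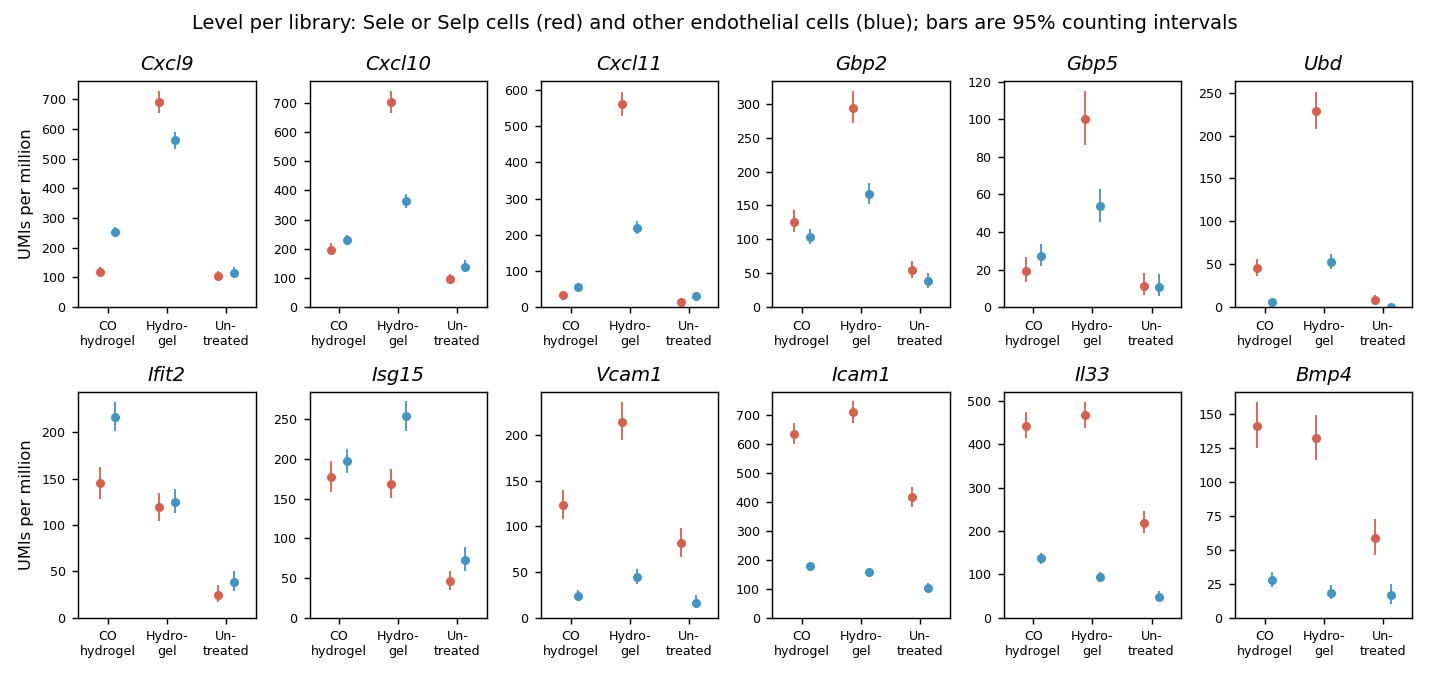
CPM with 95% counting intervals of 12 genes in selectin-positive cells (red) and other endothelial cells (blue), for CO hydrogel, Hydrogel and Untreated from left to right. Cxcl11 stands at 34.1, 562 and 13.2 CPM in selectin-positive cells, while Ifit2 stands at 145, 119 and 24.9 CPM.

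The promoters of Cxcl10 and Cxcl11 are shown because these genes were among the 10 with the highest Hydrogel over Untreated ratios; 7 of the 10 matched a promoter entry, and 5 of those 7 held a kappaB match (Cxcl10, Cxcl11, Gbp5, Ifi47 and Ubd) and 3 the interferon-response core (Cxcl10, Gbp2 and Gbp5). The windows are RefSeq's, build GRCr8, both on the plus strand, chr14:15988816-15989115 for Cxcl10 and chr14:15973478-15973777 for Cxcl11. Capitals mark the matches: in Cxcl10 the interferon-response core and then 2 kappaB places, the second matching on both strands, and in Cxcl11 1 kappaB match.

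Cxcl10: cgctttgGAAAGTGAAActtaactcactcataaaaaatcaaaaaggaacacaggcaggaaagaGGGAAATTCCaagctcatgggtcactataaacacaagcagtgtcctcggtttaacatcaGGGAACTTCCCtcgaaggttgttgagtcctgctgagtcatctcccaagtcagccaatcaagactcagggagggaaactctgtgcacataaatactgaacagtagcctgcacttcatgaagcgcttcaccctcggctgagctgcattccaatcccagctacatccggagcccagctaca
Cxcl11: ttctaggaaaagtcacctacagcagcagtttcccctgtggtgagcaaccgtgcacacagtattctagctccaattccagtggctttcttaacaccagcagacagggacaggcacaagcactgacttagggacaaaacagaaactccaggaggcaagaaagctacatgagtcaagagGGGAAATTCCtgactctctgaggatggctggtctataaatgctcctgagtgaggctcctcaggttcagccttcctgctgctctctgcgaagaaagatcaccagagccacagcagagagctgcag

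Matches are descriptions of the letters, not binding sites, and the 7.51% and 3.92% of all windows that hold these motifs are the background to read them against. The Cxcl9 window held no match to either motif.

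Among adhesion genes, 1 passed 2-fold in each treatment comparison and none was 2-fold lower. Vcam1 was the only 1 of 16 measured that was at least 2-fold higher in Hydrogel than in Untreated, at 214 CPM against 81.3 CPM (log2 1.40, 1.09 to 1.71), and it was at 123 CPM in CO hydrogel. Icam1 stood at 635, 710 and 417 CPM, with log2 ratios of 0.61 for CO hydrogel over Untreated (0.46 to 0.75) and 0.77 for Hydrogel over Untreated (0.62 to 0.91). Cd44, the hyaluronan receptor, was the gene that passed for CO hydrogel, at 93.9, 28.9 and 24.2 CPM. Its log2 ratios were 1.70 over Hydrogel and 1.96 over Untreated, and 0.32 and 0.58 without the barcode rich in keratinocyte RNA. Of 16 NF-kB genes none passed 2-fold between either hydrogel and Untreated, and Socs3, a feedback inhibitor of cytokine signalling, was lower in CO hydrogel than in Hydrogel, at 32.5 CPM against 66.6 CPM (log2 -1.03), with 50.5 CPM in Untreated. Of 12 venous genes Cpe, which encodes carboxypeptidase E, passed 2-fold over Untreated in both hydrogel libraries, at 26.1, 34.1 and 7.32 CPM (log2 1.84 for CO hydrogel and 2.22 for Hydrogel), and none passed between CO hydrogel and Hydrogel. By the mean of per-cell CPM, the Cpe ratios were 0.79 and 0.63 and that of Socs3 was -0.60, all short of 2-fold. Il33 was at 443, 467 and 219 CPM and Bmp4 at 141, 132 and 58.6 CPM, so that both hydrogel libraries lay above Untreated by about the same log2 ratios, 1.02 and 1.09 for Il33 and 1.27 and 1.17 for Bmp4. An Il33 UMI was found in 63.7%, 52.2% and 53.7% of members and a Bmp4 UMI in 33.3%, 25% and 30.6%. In Hydrogel these shares were thus not above Untreated. Csf3 was highest in Hydrogel, at 531 CPM, with 273 CPM in CO hydrogel and 209 CPM in Untreated, where 1 member held 88 of its 286 UMIs. Hmox1, at 79.5, 92.9 and 90.8 CPM, had a log2 ratio of -0.23 for CO hydrogel over Hydrogel, with an interval of -0.55 to 0.10 that includes 0.

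Other genes with large ratios had varied roles. Elastin (Eln) stood at 147, 234 and 30 CPM, with log2 ratios over Untreated of 2.29 for CO hydrogel and 2.96 for Hydrogel, and other endothelial cells had 74.1, 86.3 and 13.4 CPM. Fibroblast-gated cells had Eln at 159, 195 and 66 CPM. An Eln UMI was found in 38.8%, 25.9% and 23.1% of selectin-positive cells, and in Hydrogel 23 members held 85.9% of its UMIs. Endothelin (Edn1), a vasoconstrictor peptide, stood at 10.1, 36.1 and 39.5 CPM, lower in CO hydrogel than in Hydrogel (log2 -1.83) and than in Untreated (log2 -1.96). Igfbp2 stood at 8.54, 34.6 and 73.2 CPM, but 47 of its 100 Untreated UMIs lay in 1 member. Timp4, a metalloproteinase inhibitor, stood at 50.1, 9.29 and 24.9 CPM, and the sulfotransferase Sult1a1 at 58.1, 11.9 and 12.4 CPM, both highest in CO hydrogel. The scavenger receptor Olr1 (LOX-1) stood at 47.5, 275 and 90.8 CPM, with 281, 742 and 546 CPM in neutrophil-gated cells. The metallothionein Mt2A stood at 537, 653 and 1293 CPM, highest in Untreated, whereas other endothelial cells had 327, 344 and 325 CPM. Tbx1, a transcription factor of lymphatic endothelium, stood at 5.33, 7.23 and 36.6 CPM, and Cxcl12 at 83.2, 123 and 260 CPM.

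The highest CO hydrogel ratios of all, of Krt17, Stfa3, Krt5 and Lgals7 over Hydrogel, were those of the single barcode rich in keratinocyte RNA. Krt17 stood at 1208, 22.2 and 20.5 CPM, of which 2165 of 2265 CO hydrogel UMIs lay in that 1 member, and its log2 ratio over Hydrogel was 5.77 with it and 1.35 without it. For Stfa3, Krt5 and Lgals7 the ratios were 5.64, 5.58 and 4.28 with it and 1.31, 1.20 and 1.01 without it.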

How the data were processed

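Per the labels' protocols, single-cell suspensions were prepared with 10x Genomics 3′ chemistry, and about 8000 cells per library were expected, against 15376, 15442 and 12883 deposited barcodes in CO hydrogel, Hydrogel and Untreated. The authors deposited UMI counts, whole numbers per gene and barcode with no normalization, made with Cell Ranger, whose version is 6.0.1 per the file headers and 7.0.0 per the submitters' processing notes. Those notes also list Seurat 4.2.0, DESeq 1.38.0 and the build rn6. Of 32883 features, 21430 had a symbol, and 11 of the 374 listed genes had no feature of that name and were not analysed here.

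Counts were summed per library over selectin-positive and over other endothelial cells. Genes with at least 50 UMIs over the 6 sums were tested with edgeR 4.0.16 (R 4.3.3, quasi-likelihood test, TMM factors, library as block, Benjamini-Hochberg adjustment, threshold 0.05), and DESeq2 1.42.0 was an alternative. CPM are counts per 1000000 UMIs of the summed cells. Treatments had 1 library each and were described with exact Poisson and conditional binomial intervals at 95%, with a ratio of at least 2 counted as past the fold. Shares were thinned to 1000 UMIs. The scripts were tested on simulated data. Named genes were the 12 largest changes in each direction (8 for Sele against Selp). These came from called genes with the same sign in the 3 libraries and a UMI in at least 10% of cells. For each treatment pair, the 10 largest ratios in each direction were named without any test or condition on sign. There, a UMI in at least 10% of the members of either library was enough. Genes over 5 times higher in another gate were left out, and not all genes so chosen are reported here. The other gates were neutrophil, macrophage, fibroblast and mural cells, set by marker UMIs and by the absence of UMIs of other cell types, among them Cdh5 and Plvap. No doublets were removed, since Scrublet (scanpy 1.11.5) called 545, 475 and 1 barcodes and so had not worked in Untreated. Removing the barcodes of highest score was an alternative, which took out 13, 13 and 10 members. Other alternatives were the minimum count, the block, each library left out, stricter cell filters, at least 3 endothelial genes, per-cell means, TMM factors, cells with a capillary gene as the comparison, and, chosen after seeing the data, keeping cells with Ptprc, Pdgfra or Rgs5 and leaving out cells with keratinocyte RNA or over 50000 UMIs. The members, gene lists and tests were chosen with earlier results of these data known. Promoter windows came from RefSeq tables of build GRCr8, matched by symbol, and no coordinates of the deposited build were used. Figures were drawn with matplotlib 3.10.9 in Python 3.11.15.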

Additional observations from a re-analysis of the deposited data

Results flagged for a closer look

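For 4 of the listed and named genes the difference between selectin-positive and other endothelial cells was at least 2-fold in opposite directions in different libraries, and the difference between libraries was not tested. Cxcl11 was higher in selectin-positive cells in Hydrogel (log2 1.36) and lower in Untreated (log2 -1.19). Krt17 was higher in CO hydrogel (log2 1.02) and lower in Hydrogel (log2 -3.45), and Stfa3 was higher in CO hydrogel (log2 1.25) and lower in Hydrogel (log2 -2.00) and Untreated (log2 -3.43). In CO hydrogel 2165 of 2265 Krt17 UMIs and 872 of 915 Stfa3 UMIs of members lay in 1 barcode. The mitotic gene Ube2c was higher in CO hydrogel (log2 1.30) and lower in Hydrogel (log2 -1.09) and Untreated (log2 -2.17), and 44 of its 110 CO hydrogel UMIs in members lay in 1 barcode.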

How the results depend on the processing

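The comparison of selectin-positive with other endothelial cells gave 379 higher and 539 lower genes, and 40 and 42 without the replicate block, 179 and 153 with DESeq2, 165 and 191 in cells thinned to 1000 UMIs, and 681 and 887 with cells holding Ptprc, Pdgfra or Rgs5 kept. Against cells with Gpihbp1 or Rbp7, 318 were lower. Leaving out 1 library gave 220 to 356 higher and 357 to 443 lower genes. Sele-positive against Selp-only cells gave 11 higher and 64 lower genes, and 56 and 129 with no minimum count, 0 and 0 without the replicate block (117 and 170 at an unadjusted p under 0.05 in edgeR), 2 and 5 with DESeq2, 5 and 11 thinned, and 0 and 0 with the excluded cells kept (238 and 381 at an unadjusted p). It gave 7 higher with the highest Scrublet scores removed, 4 higher under the stricter cell filter, 19 lower with at least 3 endothelial genes, 23 higher and 34 lower without the cell of at least 1% keratinocyte UMIs, and 24 lower without cells over 50000 UMIs. Leaving out 1 library gave 2 to 24 higher and 36 to 64 lower. The cause of these shifts was not tested, though fewer genes are tested in thinned cells.

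For treatments, CO hydrogel over Hydrogel gave 141 higher and 87 lower genes, and 1857 and 1767 with no minimum count, 22 and 25 thinned, 344 and 186 with the excluded cells kept, 87 higher with at least 3 endothelial genes and 195 lower by the mean of per-cell CPM. CO hydrogel over Untreated gave 276 and 46, and 2580 and 1287 with no minimum count, 47 and 17 thinned, 700 and 102 with the excluded cells kept and 140 lower by per-cell means. Hydrogel over Untreated gave 201 and 38, and 2365 and 1171 with no minimum count, 29 and 6 thinned, 400 and 70 with the excluded cells kept and 324 and 95 by per-cell means. With no minimum count, genes of a few UMIs enter these counts. The thinned share of 20.7% in CO hydrogel was 26.5% without thinning, 26.4% at 2000 UMIs and 13.5% with the excluded cells kept, that of 21.0% in Hydrogel was 32%, 28.2% and 16.9%, and that of 22.8% in Untreated was 37.2%, 34.6% and 19.7%.

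Directions turned as follows on the log2 scale. Against other endothelial cells, Angpt2 had 0.08 thinned, Acta2 0.20 against cells with Gpihbp1 or Rbp7, and with the excluded cells kept Col4a1 had 0.01, Mcam 0.10, Mecom 0.05, Notch1 0.10 and Podxl 0.03. Ptgs2 in Sele-positive against Selp-only cells had 0.02 thinned. For CO hydrogel over Untreated, per-cell means gave Ccl20 -1.23, Esm1 -1.59, Ptgs2 -0.54 and Ube2c -0.22, Ube2c had -0.99 with the excluded cells kept, and Ptgs2 had -0.09 and -0.17 without the keratinocyte cell and without cells over 50000 UMIs. Timp4 for Hydrogel over Untreated had 0.03 with the excluded cells kept. The other values of single genes kept their direction, and 536 of them lost the call and 206 untested ones moved beyond their counting interval. Among treatment ratios still measured in thinned cells, 5 moved and 3 did not for CO hydrogel over Hydrogel. For CO hydrogel over Untreated 9 moved and 4 did not, and for Hydrogel over Untreated 9 moved and 1 did not. By per-cell means the counts were 23 and 18, 19 and 30 (with 4 more turned), and 23 and 22, in that order. No paired analysis was possible between treatments because each treatment has 1 library. The number of cells, and with it the summed UMIs, limits the Untreated values, which rest on 108 cells. Of these, 2 members over 50000 UMIs held 12.2% of the summed UMIs. In CO hydrogel 2 such members held 11.7%, and Hydrogel had 0.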

Other observations

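Class II antigen presentation genes were lower in selectin-positive cells than in other endothelial cells, 4 of 12 presentation genes tested and none higher. RT1-Da stood at 55.5, 42.3 and 14.6 CPM in CO hydrogel, Hydrogel and Untreated, against 198, 95.6 and 73.2 CPM in other endothelial cells (log2 -1.64, SE 0.17, edgeR adjusted p = 8.44e-05), and Cd74, the invariant chain, stood at 71.5, 115 and 26.4 CPM, against 302, 151 and 153 CPM (log2 -1.50, adjusted p = 0.00539). Macrophage markers were lower in the same sums, and the part of macrophage RNA was not tested. Against other endothelial cells with a Gpihbp1 or Rbp7 UMI, edgeR called 0 of 11 presentation genes (2 at an unadjusted p under 0.05), and Cd74 did not pass without the Untreated library.

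Glycolytic and hypoxia-induced genes were split, 3 of 19 higher and 3 lower. Lactate dehydrogenase A (Ldha) stood at 834, 763 and 919 CPM, against 558, 599 and 725 CPM (log2 0.46, adjusted p = 0.0129), and Vegfa, the growth factor of endothelium, at 21.3, 9.81 and 15.4 CPM, against 32.2, 26.6 and 26.1 CPM (log2 -0.86, adjusted p = 0.0264). Neither passed without the Hydrogel library. Nos3, the endothelial nitric oxide synthase, stood at 196, 268 and 293 CPM, against 150, 221 and 249 CPM, and did not pass (log2 0.33, adjusted p = 0.073). Nos2 was lower at 4.8, 24.8 and 19 CPM, against 15.7, 86.3 and 140 CPM (log2 -2.17, adjusted p = 6.33e-05), and neutrophil markers were lower in the Hydrogel and Untreated sums.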
